A study of Mus musculus with 6 samples.

Results

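The mucolipin genes Mcoln1, Mcoln2 and Mcoln3 are 3 of the 21883 protein-coding genes of the mouse gene table used here, and all 3 had open chromatin peaks in every library. The assay was ATAC-seq of blood monocytes, where the transposase Tn5 cuts and tags open DNA. The DTR group held 3 libraries from PF4cre-iDTR mice, in which Cre driven by the promoter of the platelet chemokine gene Pf4 switches on a diphtheria toxin receptor, so that the toxin removes cells of the megakaryocyte and platelet lineage. The WT group held 3 libraries from wild-type control mice, and mice of both genotypes received diphtheria toxin. The labels describe the DTR mice as thrombocytopenic and say neither whether a library came from 1 animal or a pool nor how old the animals were. The family was selected on an earlier result from the same libraries, an end of Mcoln3 with a peak in every DTR and in no WT library. Peaks were assigned to a gene when they overlapped its body extended by 10 kb on each side. Because the same contrast led to the choice, all differences between DTR and WT below are descriptions and carry no test, and 3 libraries against 3 could not give an exact permutation p below 0.1.

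Mucolipins, also called TRPML channels, are cation channels of endosomes and lysosomes that release calcium and other cations into the cytosol, and they open on binding the endolysosomal lipid PI(3,5)P2. Mcoln1 encodes the widely expressed member, whose human counterpart is mutated in mucolipidosis type IV and whose calcium release can activate calcineurin and, through it, the lysosomal transcription factor TFEB. Mcoln2 encodes a member found mainly in immune cells, which is induced in activated mouse macrophages. Mcoln3 is the gene mutated in varitint-waddler mice, which are deaf and have a variegated coat.

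Mcoln1 lies on chromosome 8, and Mcoln3 and Mcoln2 are neighbours on chromosome 3 that run in the same direction and are separated by 7987 bp. Their promoters are shown because they differed in whether the libraries had a peak there. The sequences are the 250 bases before the annotated start, from RefSeq on build GRCm38.p6, and all 3 are on the plus strand. They lie at chr8:3500269-3500518 for Mcoln1, at chr3:146149924-146150173 for Mcoln2 and at chr3:146121541-146121790 for Mcoln3. Capitals mark matches, on either strand, to 9 short motifs.
Mcoln1: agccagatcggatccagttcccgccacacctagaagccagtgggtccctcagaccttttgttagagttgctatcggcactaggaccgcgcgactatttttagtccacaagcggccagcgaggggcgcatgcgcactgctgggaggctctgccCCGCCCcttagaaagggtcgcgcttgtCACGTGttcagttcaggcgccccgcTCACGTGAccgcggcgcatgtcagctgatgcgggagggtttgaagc
Mcoln2: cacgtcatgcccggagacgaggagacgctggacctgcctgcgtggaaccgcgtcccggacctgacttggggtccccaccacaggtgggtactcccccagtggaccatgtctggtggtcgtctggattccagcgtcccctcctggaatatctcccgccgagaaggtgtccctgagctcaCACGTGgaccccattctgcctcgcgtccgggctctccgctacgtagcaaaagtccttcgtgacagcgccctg
Mcoln3: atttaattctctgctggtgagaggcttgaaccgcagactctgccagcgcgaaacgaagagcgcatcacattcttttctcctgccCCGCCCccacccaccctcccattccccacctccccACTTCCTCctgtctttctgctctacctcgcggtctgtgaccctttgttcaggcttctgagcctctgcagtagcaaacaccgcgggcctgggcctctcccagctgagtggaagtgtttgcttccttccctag

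The promoter of Mcoln1 held the letters CACGTG, the core of the E-box bound by TFEB and related factors, at 2 places, 71 and 45 bases before the start, and that of Mcoln2 held them once, 72 bases before the start. This core was present in 6.02% of the 32851 promoters of the table. The longer form TCACGTGA, which contains the core, was found once at Mcoln1 and in 0.785% of promoters. The promoter of Mcoln3 had neither, but held GAGGAAGT, a motif of the myeloid factor PU.1, on the opposite strand 131 bases before the start, which 2.44% of promoters held. The GC box GGGCGG occurred once each at Mcoln1 and Mcoln3 and in 32.7% of promoters. No match was found in these windows to TGANTCA of AP-1, TGACGTCA of CREB, TTGCNNAA of C/EBP, TGTGGTT of RUNX or AANNGAAA of IRF factors. The GC content was 61.6% at Mcoln1, 64.4% at Mcoln2 and 58.0% at Mcoln3, with a median of 52.4% over all promoters, and the numbers of CpG were 21, 20 and 10, with a median of 6.

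The promoters of Mcoln1 and Mcoln2 were covered by a peak in all 6 libraries, as were 41.1% of all promoters, each taken from 250 bases before to 50 after the start. That of Mcoln3 was covered in 3 of 6. The peak over the Mcoln1 start (chromosome 8, 3499942 to 3501119) had a fold enrichment of 10.5, 10.2 and 10.5 in the DTR libraries and of 9.12, 9.81 and 10.3 in the WT libraries. The fold is the authors' value over the peak caller's background, and the median peak of a library had a fold between 5.23 and 5.38. The groups overlapped at this start, and in bulk libraries such as these a site open in fewer cells and a site less open in each cell cannot be told apart. In fold, this start ranked between the 89.2nd and the 95.7th percentile of each library's list. At the Mcoln2 start (chromosome 3, 146149762 to 146150786) the fold was 9.41, 8.60 and 8.19 in DTR and 9.35, 8.97 and 8.21 in WT, which also overlapped. At the Mcoln3 start (146121653 to 146121881) DTR library 1 had a peak of fold 3.37, and WT libraries 1 and 3 had peaks of fold 2.65 and 2.97. These were weak peaks, between the 7.04th and the 19.2nd percentile of their lists, and DTR libraries 2 and 3 and WT library 2 had none. Of the 3 annotated starts, that of Mcoln1 was the most enriched on average (10.1), followed by that of Mcoln2 (8.79), with overlapping ranges over the 6 libraries, and that of Mcoln3 lay below both.

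At Mcoln1 the groups had the same number of peaks, with overlapping widths and folds. Each of the 6 libraries had 3 peaks in the window, and all 3 merged regions, made by joining the overlapping or touching peaks of the 6 lists, were present in all libraries. Each region covered an annotated start, 1 of Mcoln1 itself and the others of its neighbours, the zinc finger gene Zfp358 upstream and Pnpla6, which encodes a phospholipase and begins 2 bp past the end of Mcoln1. No peak lay inside the rest of the Mcoln1 body. The mean peak width was 1161, 1187 and 1182 bp in DTR and 1229, 1136 and 1144 bp in WT. The mean fold was 8.75, 8.21 and 8.34 in the DTR libraries and 7.96, 8.15 and 8.34 in the WT libraries. The groups overlapped for both measures, and the differences of 7.11 bp and 0.282 did not exceed the larger SD of a group (51.6 bp and 0.282). The region at Zfp358 (3492987 to 3493723) was covered over 581, 670 and 643 bp in DTR and 576, 544 and 576 bp in WT, a small gap between the groups. Longer coverage in every DTR library was seen at 13.0% of the regions shared by all libraries.

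**Figure D1:**
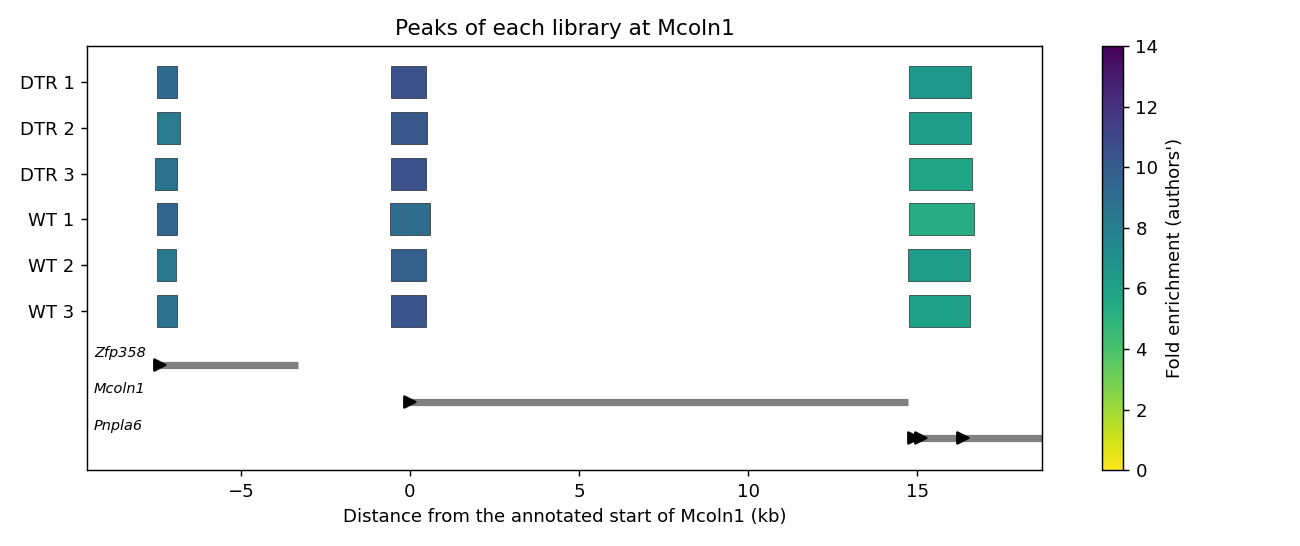
Peaks of the 3 DTR and 3 WT libraries (rows) along the Mcoln1 window, by distance from the annotated start of Mcoln1 in kb, coloured by the authors' fold enrichment. Grey lines are gene bodies and arrowheads annotated starts, and every library has the same 3 peaks, each at a start.

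The windows of Mcoln3 and Mcoln2 held 11 merged regions each and shared 3 of them, since the windows overlap by 12013 bp, so the values of these 2 genes are not independent. Of the 11 regions at Mcoln2, 7 were present in all 6 libraries, and of those at Mcoln3, 6 were. Over all 3 genes it was 15 of 22 regions, against 74.1% of all regions of the lists. There was 1 DTR-only region, present in all DTR and no WT libraries, and it counted for both genes, while 0 regions were WT-only. Over all lists 0.820% of regions were DTR-only and 0.0992% WT-only, and 3.25% of genes had a DTR-only and 0.493% a WT-only region in their window. Since an end of Mcoln3 with DTR peaks alone led to the choice of these genes, nothing is read from that count. The annotated body of Mcoln3 begins 28514 bp before the start given in the promoter table and overlaps the body of Wdr63, a gene of a ciliary dynein protein, by 14824 bp. The region at 146107354 to 146108411 therefore covers the start of Wdr63 as well as the body of Mcoln3, with folds of 3.95 to 4.27 in DTR and 4.13 to 4.54 in WT.

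**Figure D2:**
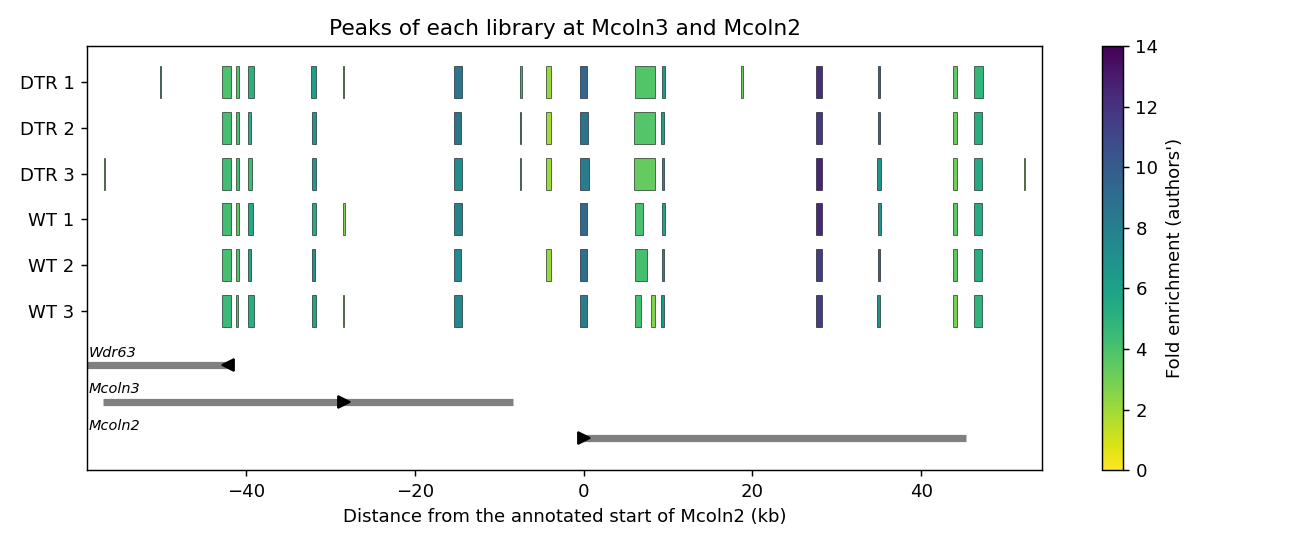
Peaks of the 3 DTR and 3 WT libraries (rows) along the Mcoln3 and Mcoln2 windows, by distance from the annotated start of Mcoln2 in kb, coloured by the authors' fold enrichment. Grey lines are gene bodies and arrowheads annotated starts, and the thin peak just past the end of Mcoln3 appears in every DTR row and in no WT row.

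Counted with the DTR-only region on which the choice of the genes rests, both chromosome 3 genes had more peaks in every DTR library than in any WT library, and without it the groups overlapped at both. At Mcoln3 there were 10, 8 and 9 peaks in DTR and 7 in each WT library. At Mcoln2 there were 10, 9 and 10 peaks in DTR and 7, 8 and 8 in WT. The difference in means was 2 peaks for both, against a median difference of 0 over all genes. Without the DTR-only region, taken out as a step added after the data were seen, Mcoln3 had 9, 7 and 8 peaks in DTR and 7 in each WT library, and Mcoln2 had 9, 8 and 9 in the DTR libraries and 7, 8 and 8 in the WT libraries. The difference was then 1 peak for both, and DTR library 2 tied with the highest WT library at each gene. Peak numbers above WT in every DTR library were seen at 2.98% of the 16827 genes with a peak in their window. Nothing is read from that share here, since the region behind the choice is part of what separates the groups. With all peaks counted, the separation also needed the weak second region described below, which was present in all DTR libraries and 1 WT library. At a q of at most 1e-05 that region had a peak in 0 DTR and 0 WT libraries, and the DTR-only region remained. The groups then stayed apart, with means of 8 peaks in DTR and 6.67 in WT at Mcoln2, and 7.67 and 6 at Mcoln3. The stretch between the Mcoln3 and Mcoln2 bodies gave 1.67 of the difference of 2 peaks. It held 2 peaks in each DTR library, and in WT it held 1 in library 2 and 0 in libraries 1 and 3. Within the gene bodies alone, the difference was 0.333 peaks at Mcoln3 and 0 at Mcoln2. With all lists cut to the length of WT library 2, it was 1 at Mcoln3 and 0.667 at Mcoln2, and the groups overlapped at both. With 20 kb on each side it was 1.67 at Mcoln3, where the groups overlapped, and 2 at Mcoln2, where they did not.

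The first region in that stretch was the DTR-only region, at chromosome 3, 146142632 to 146142825. It lay 824 bp past the annotated end of Mcoln3 and 7349 bp before the start of Mcoln2, and so 20841 bp away from the annotated start of Mcoln3 itself. Its fold was 4.68, 5.29 and 4.57 in the DTR libraries, its width 186, 161 and 158 bp and its −log10 q 11.0, 13.8 and 11.0, and no WT library had a peak there. Its fold ranked between the 39.3rd and the 48.7th percentile of its lists, below the median peak in every DTR library. Among the 761 DTR-only regions of all lists it ranked 52 by its lowest fold and 83 by its lowest −log10 q, whose medians were 3.03 and 4.29. An end with peaks in all DTR and no WT libraries was found at 0.133% of protein-coding genes. Such an end was the ground for the choice of the family, so nothing is read from that share or from these ranks.

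The second region in the stretch (146145739 to 146146359) lay 3815 bp before the start of Mcoln2. It was present in all DTR libraries, with folds of 2.24, 1.93 and 2.13, and in WT library 2 alone, with a fold of 2.23. Its peaks were among the weakest of each list, at or below the 2.25th percentile, and they covered 600, 603 and 619 bp in DTR and 598 bp in WT library 2. All lists were also cut to 77867 peaks, the length of the shortest list, that of WT library 2, which therefore lost no peak. The second region then kept its peak in WT library 2 and in 0 DTR libraries, from which nothing is read. The DTR-only region kept its peaks in all DTR libraries and still had none in WT. The remaining 4 regions that were not shared each belonged to 1 DTR library alone. They were 140 to 153 bp wide, 2 in the Mcoln3 body, 1 in the Mcoln2 body and 1 past its end, with folds of 3.08, 4.44, 3.21 and 2.78. Regions of 1 DTR library alone made up 5.05% of all regions, and those of 1 WT library alone 3.06%.

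**Figure D3:**
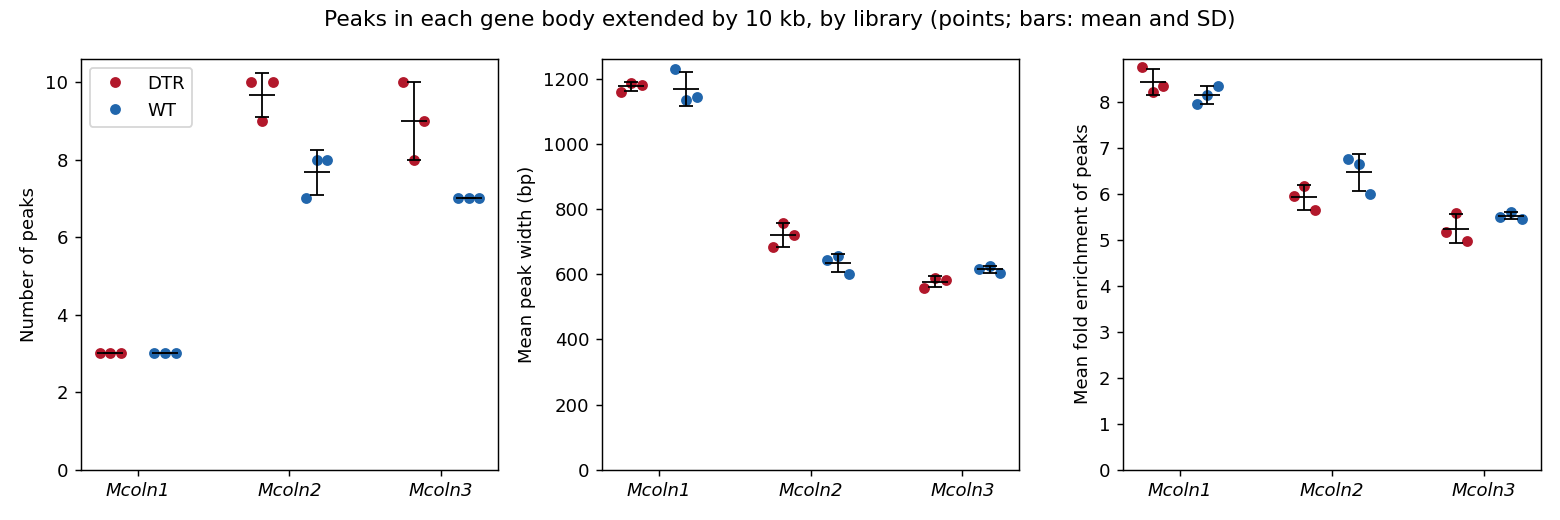
Number of peaks, mean peak width in bp and mean fold enrichment of the peaks in each gene body extended by 10 kb, with 1 point per library for DTR (left of each pair) and WT and bars for mean and SD (n = 3 each). Peak numbers of Mcoln2 and Mcoln3, which include the DTR-only region behind the choice of the genes, are higher in DTR, overlap between the groups without that region, and are 3 in every library at Mcoln1.

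Mean peak width was larger in every DTR library at Mcoln2, where this rested on a single wide region. Its direction at Mcoln3 depended on the DTR-only region. At Mcoln2 the mean peak width was 685, 756 and 721 bp in DTR and 645, 658 and 602 bp in WT. The DTR mean was 721 ± 35.8 bp and the WT mean 635 ± 29.1 bp (SD, n = 3 each), with no overlap, as at 11.9% of genes. Without the DTR-only region the difference at Mcoln2 was 150.0 bp, and the groups still did not overlap. Both differences rested on a wide region inside Mcoln2, covered over 2335, 2431 and 2427 bp in DTR and 926, 1413 and 1173 bp in WT. The share of 11.9% is therefore not read as a trait of the Mcoln2 peaks in general. At Mcoln3 the mean peak width was 558, 590 and 582 bp in DTR and 617, 625 and 603 bp in WT, with means of 577 ± 16.9 bp and 615 ± 10.8 bp (SD, n = 3 each). Here every DTR value lay below every WT value, as at 2.45% of genes, but the DTR means include the DTR-only peaks of 158 to 186 bp. Without them the mean width at Mcoln3 was 599, 651 and 635 bp in DTR and 617, 625 and 603 bp in WT, a difference of 13.5 bp in the other direction with overlapping groups, so nothing is read from that share. Within the Mcoln3 body alone, which also leaves out the DTR-only region, the difference was 3.15 bp with overlapping groups. The direction also depended on the window. With 20 kb on each side, which takes in the wide region of Mcoln2, the difference at Mcoln3 was 96.1 bp, and every DTR value lay above every WT value. Over all genes the median difference was 19.3 bp, wider in DTR.

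With all peaks and libraries, the mean fold did not separate the groups at any of the 3 genes. It was 5.95, 6.17 and 5.64 in DTR and 6.76, 6.64 and 6.004 in WT at Mcoln2, and 5.17, 5.58 and 4.96 in DTR and 5.51, 5.61 and 5.45 in WT at Mcoln3. The DTR minus WT differences in means were -0.547 and -0.284, and some DTR values exceeded the lowest WT value. The overlap rested on single libraries, since the DTR values lay wholly below WT at Mcoln2 without DTR library 2 (-0.673) or without WT library 3 (-0.779), and at Mcoln3 without DTR library 2 (-0.455). At Mcoln1 they lay wholly above WT without WT library 3 (0.377), and at Mcoln2 wholly below with peaks of a q of at most 1e-05 (-0.398). Leaving out the library behind an overlap can bring a separation about by construction, so nothing is read from those separations. The sign itself was not stable, since with lists of equal length the difference was 0.0328 at Mcoln2 and 0.116 at Mcoln3. Within the gene bodies alone it was 0.0458 and 0.104, and the groups overlapped in both settings. Across genes, 7.50% had a mean fold above WT in every DTR library and 5.93% below. The summed width of the peaks was larger in DTR at both, with 6845, 6805 and 7214 bp against 4515, 5260 and 4816 bp in WT at Mcoln2, and 5576, 4721 and 5239 bp against 4316, 4374 and 4224 bp in WT at Mcoln3. A separation of this kind was common, at 19.5% of genes, and the median gene had 116 bp more in DTR.

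Of the Mcoln2 difference in summed width, 58.7% came from a single region inside the gene, singled out after its values were seen. This region (chromosome 3, 146156151 to 146158616) began 5977 bp after the start of Mcoln2 and was present in all libraries. Its peaks covered 2335, 2431 and 2427 bp in DTR and 926, 1413 and 1173 bp in WT, where library 3 had it as 2 separate peaks. Every DTR library was thus covered over a longer stretch than any WT library, on average 2.05 times as long. Regions shared by all libraries were covered over a longer stretch in every DTR library in 13.0% of cases, and in 0.413% with a mean at least 2 times as long, a limit chosen after this value was seen. Its fold ran the other way, at 3.80, 3.75 and 3.31 in DTR and 4.08, 4.14 and 4.13 in WT, with the higher of its 2 peaks given for library 3. In the broad peak format of MACS2 the fold is an average over the length of the peak, so a wide peak with a low fold and a narrow one with a higher fold are not 2 independent readings. Of the 15 regions shared by all libraries, this was the only one with a fold below WT in every DTR library, and 0 had a fold above WT in every DTR library. Over all shared regions the shares were 5.15% below and 10.4% above. A longer covered stretch in every DTR library was seen at 5 of the 15, namely this region, the one at Zfp358, 1 just past the end of Mcoln2 and 2 inside Mcoln3. The nearer of the pair in Mcoln3 to the Mcoln3 start, 3277 bp before it, was covered over 675, 470 and 484 bp in DTR and 445, 329 and 431 bp in WT, with overlapping folds.

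**Figure D4:**
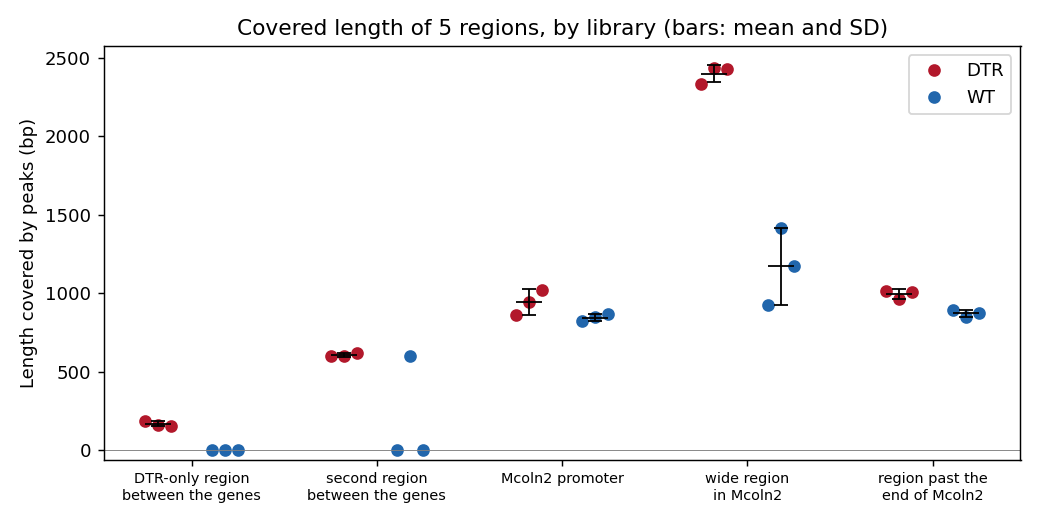
Length covered by peaks in bp in 5 regions at Mcoln2 and Mcoln3, with 1 point per library for DTR (left of each pair) and WT and bars for mean and SD where all 3 libraries have a peak. The wide region in Mcoln2 lies between 2335 and 2431 bp in DTR and between 926 and 1413 bp in WT.

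The most enriched site of the 3 genes lay inside Mcoln2, and its fold overlapped between the groups. The region at 146177686 to 146178405, 27512 bp after the Mcoln2 start, had folds of 12.1, 11.8 and 12.6 in DTR and 12.4, 11.4 and 11.5 in WT. In every library it ranked at the 97.1st percentile or higher of its list, and it was 658 to 703 bp wide. The groups overlapped, with means of 12.2 ± 0.407 and 11.8 ± 0.532 (SD, n = 3 each). A second strong site in Mcoln2 (146184910 to 146185430) had folds of 9.50, 9.45 and 6.81 in DTR and 6.67, 9.81 and 6.94 in WT. Its fold followed the width of the peak and not the group, since the 3 libraries with a peak of 212 to 254 bp had a fold above 9 and those with 394 to 514 bp had one below 7. Inside Mcoln3 the most enriched site (146134830 to 146135788) lay 13039 bp after its annotated start, with folds of 8.49, 8.60 and 7.15 in DTR and 7.72, 7.31 and 7.44 in WT. It exceeded the fold at the start of Mcoln3 in each of the 3 libraries that had a peak there. Just past the end of Mcoln2 (146196400 to 146197426), the fold overlapped between groups, while the covered length was 1016, 961 and 1007 bp in DTR and 894, 846 and 875 bp in WT, with no overlap. A covered length above WT in every DTR library was found at 13.0% of shared regions.

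**Figure D5:**
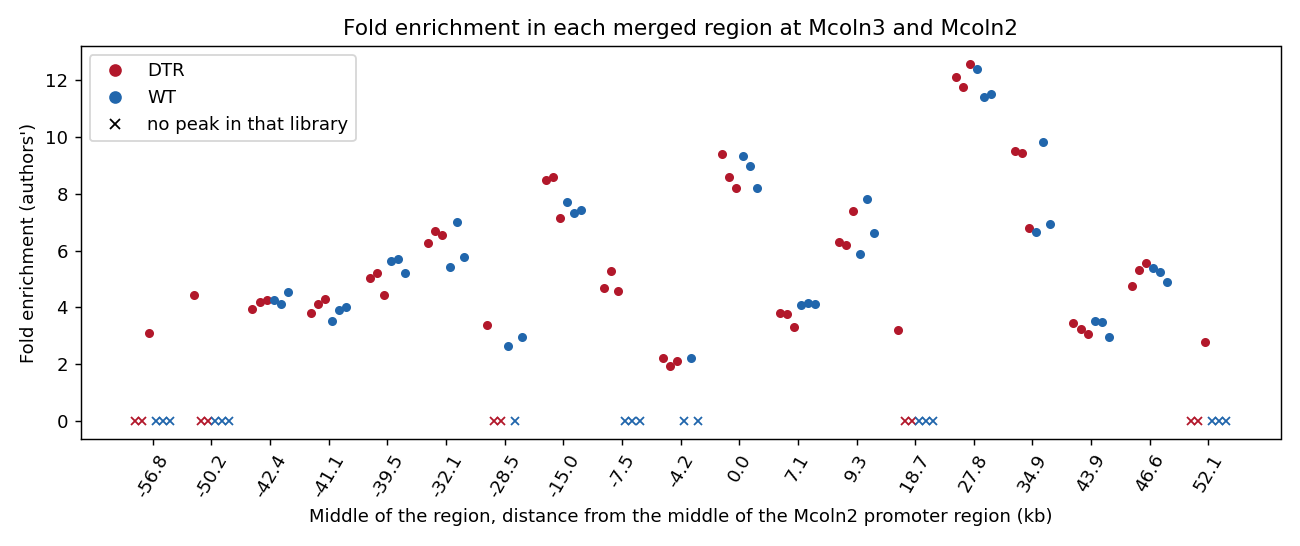
Authors' fold enrichment in each of the 19 merged regions at Mcoln3 and Mcoln2, in genome order by distance in kb from the Mcoln2 promoter region, with 1 point per library and crosses at 0 for libraries without a peak. DTR and WT points mix in most regions, and the highest region, inside Mcoln2, lies between 11.4 and 12.6 in all 6 libraries.

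The genes nearest to Mcoln3 in the folds at their ends are listed as a description. The likeness was the Euclidean distance, over the 6 libraries, between the highest folds of peaks within 1 kb of either gene end, with 0 for no peak. Among 21883 genes the nearest were Olfr1033 (distance 1.19), an olfactory receptor gene, Chst1 (1.31), a sulfotransferase gene, Epgn (1.48), which encodes a growth factor of the EGF family, Opn1sw (1.80), which encodes a cone opsin, and Cd59a (1.86), which encodes a complement inhibitor. All 5 had a peak in every DTR and in no WT library, with folds in DTR between 3.43 for Opn1sw and 5.03 for Chst1. Nothing is read from that pattern, since the Mcoln3 values compared here are those that led to the choice of the family. At Mcoln1 and Mcoln2 the same measure was 10.2 to 10.5 and 8.19 to 9.41 in DTR, and 9.12 to 10.3 and 8.21 to 9.35 in WT.

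Of 93 matched genes that work with mucolipins or belong to the wider TRP family, 69 (74.2%) had an open end in every library, against 59.0% of all protein-coding genes. Of the 85 with a peak in the window, 3 (3.53%) had more peaks in every DTR library, a share near the 2.98% of all genes. Every member of the following lists that matched the table was counted, and those with a peak in the window are the base of the comparison. Among 18 endolysosomal ion channels and transporters, 15 had an open end in all libraries and 1 had more peaks in every DTR library, P2rx4, an ATP-gated cation channel gene, with 8, 8 and 9 peaks in DTR and 6, 6 and 7 in WT. Among 13 genes of PI(3,5)P2 synthesis and turnover, 10 had an open end and 1 had more peaks, Pik3c3, the class III phosphoinositide kinase gene, with 6, 5 and 4 peaks in DTR and 3, 2 and 3 in WT. Among 23 genes of TFEB, calcineurin and mTORC1 at the lysosome, 22 had an open end and 1 had more peaks, Ppp3cc, which encodes a catalytic subunit of calcineurin, with 5 peaks in each DTR and 4 in each WT library. Of the lysosomal calcium effectors and fusion genes, 16 of 18 names matched and 15 had an open end, and of 23 other TRP channels 7 had one. In these lists 15 and 16 genes had a peak in the window, and 0 had a peak number that separated the groups. In all 5 lists the median difference in peak number was 0, as it was over all genes, and 0 genes had fewer peaks in every DTR library. Summed peak width was larger in every DTR library at 5, 6, 2, 2 and 4 genes of these lists, in the order given, or 19 of 85 (22.4%), near the 19.5% of all genes, and smaller at 0, 0, 0, 0 and 1.

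Of the monocyte markers, all 8 (Csf1r, Spi1, Ccr2, Cx3cr1, Ly6c2, Cd14, Itgam and Lyz2) had an open end in every library. Among markers of other cells the number was 1 of 4 for T cells, 2 of 4 for B cells, 2 of 3 for NK cells, 1 of 4 for neutrophils, 2 of 4 for megakaryocytes and platelets, and 2 of 3 for erythroid cells, and 0 of all marker genes had a peak number that separated the groups. Cd8a, Ms4a1, Pax5, Ncr1 and Hba-a1 had no open end in any library. The DTR lists were longer, with 81567 to 84029 peaks covering 48.1 to 50.1 Mb, against 77867 to 80475 peaks covering 43.8 to 47.7 Mb in WT. Read depth is unknown. Peaks within 2 kb of Xist, the RNA gene of X inactivation, numbered 4, 3 and 3 in DTR and 1 in each WT library, and those at Firre, a further noncoding RNA gene of the X chromosome, 17, 17 and 18 in DTR and 2 in each WT library. Peaks on the Y chromosome numbered 28, 26 and 23 in DTR and 28, 30 and 29 in WT. Sex is not among the labels. The part of list length, depth and the X-linked peaks in the values at Mcoln2 and Mcoln3 was not tested.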

How the data were processed

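ATAC-seq peaks of 3 DTR and 3 WT monocyte libraries were analysed, with groups from the sample titles. The tools named in the submitters' processing notes are Bowtie2 2.4.4, MACS2, fastp and Bowtie. How each was set, the genome build, and whether reads were shifted for Tn5 is not given in the sources used here. The authors deposited 1 list of broad peaks per library, each with a score, a fold enrichment (a ratio, column 7), and the −log10 of p and q. The lists hold no read counts, so depth is unknown and no counting interval can be given. Coordinates are the files' own, counted from 1.

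Gene names, bodies and promoters came from RefSeq tables of GRCm38.p6. In 41.1% of promoters every library had a peak, against 4.12% after a shift of 5 kb (40.2% and 4.09% on chromosome 3, 42.2% and 4.44% on chromosome 8). Peak number, mean whole width and mean fold were computed with Python (version 3.11.15) and pandas (version 2.3.3) for each gene body extended by 10 kb, and for all protein-coding genes as background. A gene or region separated the groups when all DTR values lay above, or all below, all WT values. Counting was checked on simulated lists. The members and gene lists were chosen with earlier results of these data known. The rule named every region not present in all libraries, the regions at gene ends, the most enriched region, the 5 genes most like Mcoln3, and up to 3 genes per list whose peak number separated the groups. Alternatives changed the window, the q limit, the list length, the joining of peaks and the libraries used, and 1 added after the data were seen left out the DTR-only region. No test was made.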

Additional observations from a re-analysis of the deposited data

How the results depend on the processing

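Of 152 alternative values, 130 stayed within the larger SD of a group, or within 1.5 times of a count. Some of the 130 could not move, such as those with the replicate number as a block. The limit also does not register a loss of separation. The Mcoln3 peak number stayed within it with 20 kb windows, with equal lists and without the DTR-only region, although the groups then overlapped. All differences are DTR minus WT. Without the DTR-only region, an alternative added after the data were seen, the peak number differed by 1 at Mcoln2 and Mcoln3 with overlapping groups, and the mean width by 150.0 bp at Mcoln2 and 13.5 bp at Mcoln3 (reversed). With gene bodies alone the peak number differed by 0 at Mcoln2 and 0.333 at Mcoln3, the mean width by 215 bp at Mcoln2 and 3.15 bp at Mcoln3 (reversed), the mean fold by 0.670 at Mcoln1, 0.0458 at Mcoln2 and 0.104 at Mcoln3, and DTR-only regions numbered 0, since the region lies outside both bodies. Windows of 20 kb gave 0.333 peaks and -59.9 bp at Mcoln1. At Mcoln3, where they take in the wide region of Mcoln2, they gave 96.1 bp (reversed, with no overlap) and 1.67 peaks, with overlapping groups. At a q of at most 1e-05, Mcoln2 differed by 1.33 peaks and 126 bp and Mcoln3 by -71.0 bp. The peak numbers of the groups did not overlap at either gene in that setting. With lists of equal length, the weakest peaks of every list but that of WT library 2 were removed. Mcoln2 then differed by 0.667 peaks, 123 bp and a fold of 0.0328, and Mcoln3 by a fold of 0.116. The peak numbers of the groups overlapped at both genes. With equal lists and with gene bodies alone, the mean fold thus changed sign at both genes. In the main setting it differed by -0.547 at Mcoln2 and -0.284 at Mcoln3. Without WT library 2 there were 2 DTR-only regions, and without any other library 1. There were 0 WT-only regions in every setting. The counts of group-only regions were added after the data were seen. Taking the replicate number as a block leaves each difference as it is by construction (85.8 bp at Mcoln2). Where no reason is given, the cause was not tested. Depth is unknown, so a library without a peak may have had too few reads to call it.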
